A study of Mus musculus with 2 samples.

Results

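Mir31, Mir489 and Mir708, known from quiescent muscle stem cells, and Mir221 and Mir222, known from cycling myoblasts, were described in whole gastrocnemius, a calf muscle. The 5 genes were chosen by name, and all 5 were found among 2202 annotated miRNA genes. The muscle came from 2 female mice of the hybrid strain B6CASTF1/J at 10 days of age, one library per animal, and no treatment or genetic change is labelled. Total RNA was the source, and per the labels the libraries hold RNA shorter than 30 bases. The labels number the animals as biological replicates 1 and 2, and both carry a single donor entry, so that they are separate animals is known from the replicate numbers alone. Both libraries belong to 1 group, and the comparisons below are between genes and between the 2 libraries.

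Satellite cells are the stem cells of skeletal muscle, lying between the fibre and its basal lamina. In the adult most rest outside the cell cycle, and on injury they enter it, become myoblasts and fuse into fibres, while in the first weeks of life many still divide. Work on such cells has described miR-31 as a repressor of Myf5 translation in resting cells, miR-489 as a repressor of Dek that holds cells in quiescence, and miR-708 as a repressor of Tensin-3 that keeps cells in their niche. miR-221 and miR-222 repress the cell cycle inhibitor Cdkn1b and fall as myoblasts differentiate. A muscle lysate holds RNA of fibres, vessels, nerves and blood as well as satellite cells, so fewer cells of a type and less RNA per cell cannot be told apart.

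The mature arms are shown because a miRNA finds its targets through bases 2 to 8, the seed, which is in capitals. Sequences are from RefSeq on GRCm38.p6, 5′ to 3′, and 9 arms of the 5 genes were listed there.
miR-31-5p: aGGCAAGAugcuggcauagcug
miR-31-3p: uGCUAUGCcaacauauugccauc
miR-489-5p: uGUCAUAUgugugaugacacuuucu
miR-489-3p: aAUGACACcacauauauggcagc
miR-708-5p: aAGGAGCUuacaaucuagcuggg
miR-708-3p: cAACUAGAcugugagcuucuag
miR-221-5p: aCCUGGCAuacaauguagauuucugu
miR-221-3p: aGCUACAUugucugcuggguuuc
miR-222-3p: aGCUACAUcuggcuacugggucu

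Only the 3p arms of miR-221 and miR-222 shared a seed among these 9 arms. They were identical at 11 of 23 positions, and their longest common stretch was the first 8 bases. Beyond the members, miR-489-3p shared its seed with miR-425-5p, miR-708-5p with miR-28a-5p, and the 3p arms of miR-221 and miR-222 with the short miR-1928, in a search limited to the 1018 counted genes with a mature entry in RefSeq. The 2 abundant same-seed arms are shown to compare their tails.
miR-425-5p: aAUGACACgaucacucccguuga
miR-28a-5p: aAGGAGCUcacagucuauugag

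The members lie at 4 places in the mm10 genome. Mir708 (ENSMUSG00000076143.1, chr7:96249424-96249532, plus strand) lies within Tenm4 on the same strand and overlaps no exon of its 12 annotated transcripts. Tenm4 encodes a teneurin, a transmembrane protein. Mir489 (ENSMUSG00000070107.1, chr6:3721897-3722003, minus strand) lies within Calcr on the same strand and overlaps no exon of its 5 transcripts. Calcr is the calcitonin receptor gene, itself known as a marker of quiescent satellite cells. Mir653 lies 511 bases from Mir489 in the same orientation. Mir31 (ENSMUSG00000065408.1, chr4:88910557-88910662, minus strand) overlaps an exon of the only transcript of the lincRNA AL805899.1. Mir221 (ENSMUSG00000065422.1, chrX:19146294-19146388) and Mir222 (ENSMUSG00000065471.1, chrX:19146893-19146971) lie on the minus strand, 504 bases apart, with no annotated host gene.

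Reads were counted on each gene's own strand and scaled to 1000000 such reads on all miRNA genes of the library, abbreviated CPM. The libraries held 3510897 and 3949733 of these reads in replicates 1 and 2, so that 1 read was worth 0.285 and 0.253 CPM. Reads that aligned to several places, 42.6% and 46.4% of the files, were counted on no gene. An observed 0 allows up to 3 counts, or 0.854 and 0.760 CPM. A read covers a whole mature miRNA of 22 to 26 bases, so CPM was not divided by length, and how well each sequence was captured in library preparation was not measured here. Every interval given covers counting error of reads only, and not variation between animals. Reads carry no molecular identifiers, so copies of a molecule count as separate reads and the intervals may be too narrow.

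All 5 genes were detected, taken as 2 CPM or more in both animals, as were 332 of the 2202 genes. Together the members held 0.0362% ± 0.00288 (SD, n = 2) of the counted reads. In replicate 1 the share was 0.0342% (Wilson 95% interval 0.0323% to 0.0361%), and in replicate 2 it was 0.0382% (0.0364% to 0.0402%). Among the detected genes they ranged from Mir708 with 56.6% of detected genes below it to Mir489 with 4.22% below it.

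Among the quiescence genes, Mir708 carried nearly all reads. It had 814 reads in replicate 1 and 1115 in replicate 2, or 231.9 CPM (Wilson 95% interval 216.5 to 248.3) and 282.3 CPM (266.2 to 299.4). Its mean level was 257.1 ± 35.7 CPM (SD, n = 2), the 144th rank of all genes. Mir708 made up 96.3% (94.8% to 97.4%) and 97.8% (96.8% to 98.5%) of the reads of the 3 quiescence genes in replicates 1 and 2.

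Mir31, the Myf5 repressor, stood near the lower end of detection, with 21 reads in replicate 1 and 10 in replicate 2. These are 5.98 CPM (Wilson 95% interval 3.91 to 9.14) and 2.53 CPM (1.38 to 4.66), a mean of 4.26 ± 2.44 CPM (SD, n = 2). The counting intervals of the 2 animals overlapped. Mir489, the Dek repressor, had 10 reads in replicate 1 and 15 in replicate 2. Its level was 2.85 CPM (1.55 to 5.24) and 3.80 CPM (2.30 to 6.27), a mean of 3.32 ± 0.671 CPM. Neither gene had more than 21 reads in a library.

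Of the cycling myoblast pair, Mir221 had 295 and 307 reads in replicates 1 and 2. Its level was 84.0 CPM (Wilson 95% interval 75.0 to 94.2) and 77.7 CPM (69.5 to 86.9), a mean of 80.9 ± 4.45 CPM (SD, n = 2). Mir222 had 59 and 63 reads, or 16.8 CPM (13.0 to 21.7) and 16.0 CPM (12.5 to 20.4), a mean of 16.4 ± 0.604 CPM. In both genes the 2 animals lay within each other's counting intervals.

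**Figure D1:**
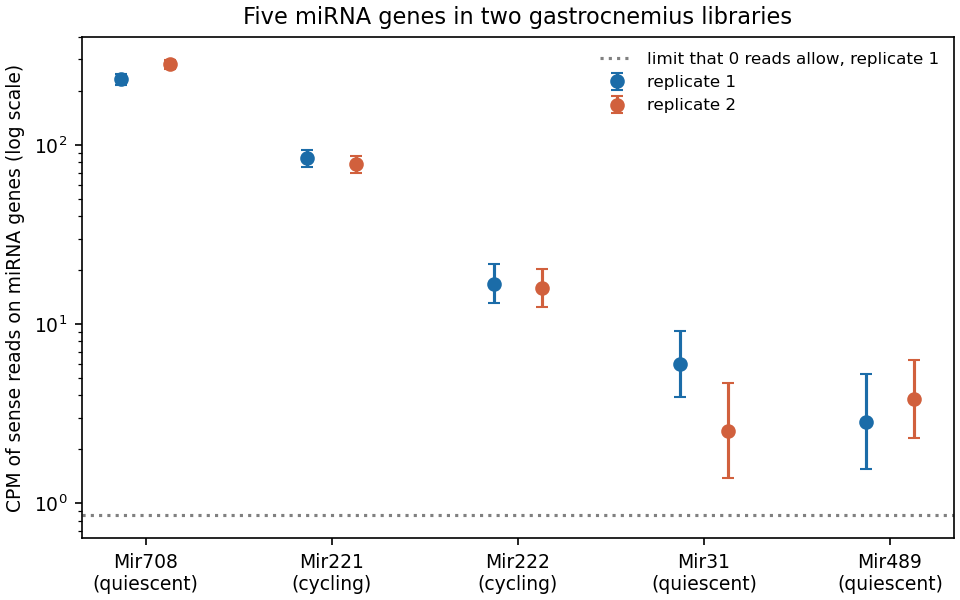
Level of each member in each library, in CPM of sense reads on miRNA genes on a log axis; bars are Wilson 95% intervals and the dotted line is the level that 0 reads allow in replicate 1. Mir708 lies at 231.9 and 282.3 CPM, while Mir31 and Mir489 lie between 2.53 and 5.98 CPM with overlapping bars.

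By level the order was Mir708, Mir221, Mir222, Mir31, Mir489. Mir708 exceeded Mir221 by 2.76-fold (exact 95% interval of the count ratio 2.41 to 3.16) in replicate 1 and 3.63-fold (3.20 to 4.13) in replicate 2. Mir221 exceeded Mir222 by 5.00-fold and 4.87-fold. Mir222 exceeded Mir31 by 2.81-fold and 6.30-fold. For these 3 steps the values of the 2 animals did not overlap between genes. Mir31 and Mir489 could not be ordered, because Mir31 had 2.10 times the reads of Mir489 in replicate 1 (0.947 to 4.99) and 0.667 times in replicate 2 (0.268 to 1.59). With 2 values a gene, an exact permutation test cannot give a p below 0.333, so the order is a description.

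The 3 quiescence genes summed to 264.7 ± 33.9 CPM (SD, n = 2) and the 2 cycling genes to 97.3 ± 5.06 CPM. In counts the first sum exceeded the second by 2.39-fold (exact 95% interval 2.11 to 2.71) in replicate 1 and by 3.08-fold (2.74 to 3.47) in replicate 2. This order rests on Mir708. Without it, Mir31 and Mir489 each stood below both cycling genes in both animals.

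**Figure D2:**
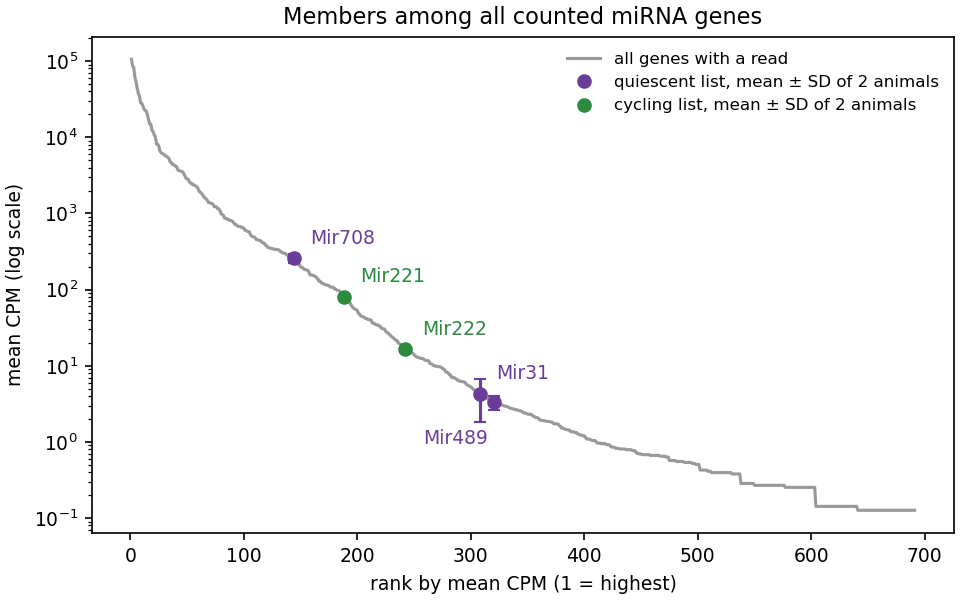
Mean CPM on a log axis against rank for all genes with a read (grey line), with the 5 members as points and bars for the SD of 2 animals. Mir708 sits at rank 144, Mir221 at 188, Mir222 at 242, Mir31 at 308 and Mir489 at 320.

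Between the 2 libraries, none of the 5 members passed the call used for all genes. A call needed an adjusted p under 0.05 in a two-sided exact binomial test of the counts, Benjamini-Hochberg adjusted over all genes tested, and a difference of at least 2-fold. Of 395 genes tested, 28 or 7.09% were called, 3.29% higher and 3.8% lower in replicate 2, and at that share 0 of 5 members does not stand apart. Without the fold limit 41.3% of genes had an adjusted p under 0.05, 17% higher and 24.3% lower in replicate 2. Under that rule 1 of the 5 members passed. The test compares these libraries, each of a single animal, and not conditions.

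Mir708 was the member with an adjusted p under 0.05, 1.22-fold higher in replicate 2 (95% interval 1.11 to 1.33, exact binomial adjusted p = 8.10e-05), a log2 ratio of 0.28. Scaled to all reads in the files instead, its log2 ratio was 0.13 and the exact adjusted p was 0.0866. Mir31 was 2.36-fold lower in replicate 2 (1.06 to 5.62, exact adjusted p = 0.0664), a log2 ratio of -1.20 that missed the threshold on 21 and 10 reads. Scaled to all reads in the files, its exact adjusted p was 0.0253, and it then passed the call.

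Mir489 was 1.33-fold higher in replicate 2, with an interval of 0.560 to 3.32 and an exact adjusted p of 0.701. At this depth a difference of up to 3.32-fold between the animals would remain within its interval. Mir221 had a log2 ratio of -0.11 (exact adjusted p = 0.493) and Mir222 of -0.08 (exact adjusted p = 0.867). Their ratios, replicate 2 over replicate 1, were 0.925 (0.786 to 1.09) and 0.949 (0.655 to 1.38), so for Mir221 a difference of over 1.27-fold lies outside the interval in either direction.

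**Figure D3:**
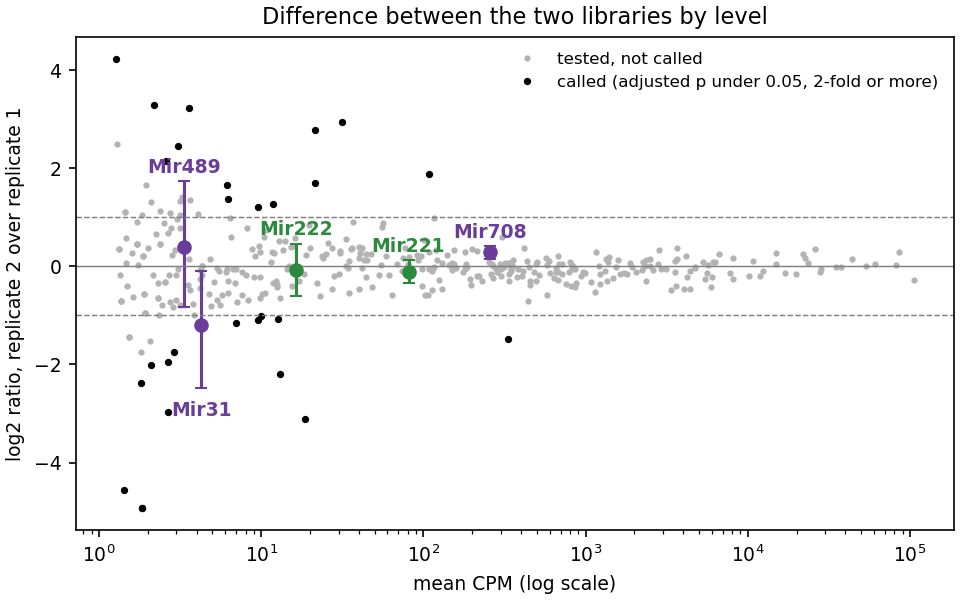
Log2 ratio of replicate 2 over replicate 1 against mean CPM (log axis) for the 395 tested genes, with called genes in black and the 5 members labelled with exact 95% intervals; dashed lines mark 2-fold. Mir31 lies beyond the lower dashed line with an interval that reaches to near 0, and the other 4 members lie between the dashed lines.

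Members that lie beside another miRNA gene were set against it. Mir221 and Mir222 kept a ratio of 5.00 (exact 95% interval 3.77 to 6.73) in replicate 1 and 4.87 (3.71 to 6.50) in replicate 2. Mir653, the neighbour of Mir489 in Calcr, had 28 and 53 reads, or 7.98 and 13.4 CPM, a mean of 10.7 ± 3.85 CPM (SD, n = 2). It exceeded Mir489 by 2.80-fold (1.32 to 6.46) in replicate 1 and by 3.53-fold (1.96 to 6.75) in replicate 2. Its log2 ratio between the libraries was 0.74 (exact adjusted p = 0.0606), beside 0.39 for Mir489. Both Calcr genes thus had more CPM in replicate 2, and neither passed the test.

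Genes with the same seed were more abundant than Mir708 and Mir489. Mir28a, which holds the seed of miR-708-5p, stood at 2263 ± 95.1 CPM (SD, n = 2), with 7709 reads in replicate 1 and 9204 in replicate 2. Its counts exceeded those of Mir708 by 9.47-fold (exact 95% interval 8.81 to 10.2) and 8.25-fold (7.76 to 8.79). Mir425, which holds the seed of miR-489-3p, stood at 491.9 ± 8.93 CPM and exceeded Mir489 by 170.5-fold (92.5 to 356.2) in replicate 1 and by 131.2-fold (79.4 to 234.9) in replicate 2. Mir1928, with the seed of miR-221-3p, had 0 reads in either library. Reads of the 5p and 3p arms are added together in a gene's count, so these ratios are between genes and not between the arms that share the seed.

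**Figure D4:**
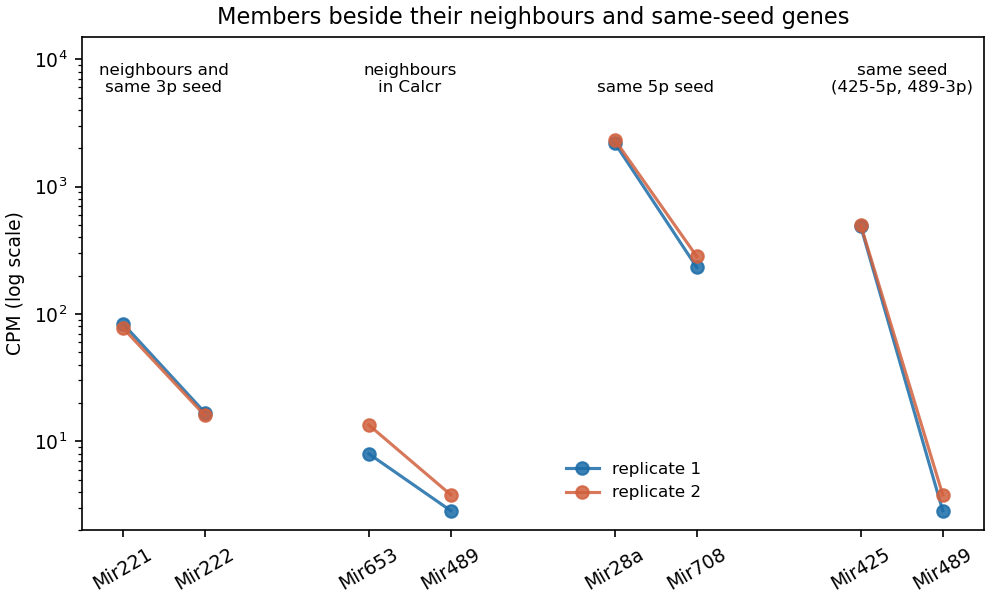
CPM on a log axis for each member but Mir31 beside its neighbouring gene or the gene that shares its seed, one line per library. Mir31 had neither and is not shown. The lines of both libraries fall from Mir221 to Mir222, from Mir653 to Mir489, from Mir28a to Mir708 and from Mir425 to Mir489.

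Of the 5 precursors, only that of Mir708 shared a 22-base window with another annotated precursor, against 17.8% of detected genes and 46.9% of all genes. The partner was Gm23134 (chr2:157562361-157562447, minus strand), named after its values were seen. It carries 22 of the 23 bases of miR-708-5p, shown as DNA with the identical bases in capitals.
Gm23134: cAGGAGCTTACAATCTAGCTGGG
Counted from the 5′ end of the mature arm, the single difference is A1C. A read that starts at base 2 or later of miR-708-5p therefore matches both genes, and the treatment of such reads beyond the setting aside of multiple alignments is not given in the sources used here. Gm23134 had 0 reads in either library, and the number of Mir708 reads lost this way was not measured. The level of Mir708 may therefore be too low, and that of the quiescence sum with it. Mir31, Mir489, Mir221 and Mir222 shared no window of 22 or of 18 bases.

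The genes closest to each member in mean CPM over the 2 libraries place the members among others of like count. Mir708 lay between Mir467d (261.8 ± 19.3 CPM) and Mir467e (251.8 ± 10.5 CPM), with Mir376b next above and Mirlet7c-1 next below. Mir221 lay between Mir148b (81.3 ± 7.45 CPM) and Mir7689 (80.2 ± 2.24 CPM), with Mir34a next above and Mir1a-2 next below. Mir222 lay between Mir34c (17.0 ± 2.55 CPM) and Mir664 (16.0 ± 4.54 CPM), with Mir106a next above and Mir3068 next below. All of these but Mir34a and Mir106a had values that overlapped those of the member.

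Near the lower end, Mir31 lay 0.0317 CPM below Mir1298 and Mir7018, which both stood at 4.29 ± 0.0224 CPM, and just above Gm27379 (4.19 ± 0.917 CPM) and Mir1949 (4.18 ± 0.537 CPM). Mir489 lay between Mir6900 (3.51 ± 0.671 CPM) and Mir488 (3.26 ± 2.19 CPM), with Mir1224 and Mir3097 one step further. All 8 of these overlapped the member in value, so ranks near Mir31 and Mir489 are not separated.

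A further list held other miRNAs described in satellite cells or dividing myoblasts. Of its 15 symbols 14 were annotated and 13 were detected, and the list summed to 92727 and 94616 CPM in replicates 1 and 2, of which Mir127 alone gave 81763 and 83217 CPM. Mir155 (183.2 ± 3.72 CPM) and Mir125b-2 (107.6 ± 2.51 CPM), named after their values were seen, stood below Mir708, and Mir682 had 0 reads. Its 3 highest genes were Mir127 (82490 ± 1028 CPM), Mir27b, a repressor of Pax3 (2372 ± 144 CPM), and Mir195a, linked to cell cycle exit of satellite cells (2328 ± 9.92 CPM). Between the libraries 5 of 13 tested genes were higher in replicate 2 at an adjusted p under 0.05 and 0 were lower, none by 2-fold. Under that rule 17% of all genes tested were higher and 24.3% lower. Mir127, with the most reads of the list, passed at a log2 ratio of 0.03. The median log2 ratio of the 13 genes was 0.04, beside -0.03 over all genes tested. Over the 5 members the median was -0.08.

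The list of myogenic differentiation miRNAs, which rise as myoblasts become fibres, held 13.6% and 11.7% of reads with 19 of 22 genes detected. Its highest genes were Mir206 (105606 ± 14626 CPM), Mir322 (14923 ± 1989 CPM) and Mir214 (3341 ± 792 CPM). Of 21 tested genes 5 were higher and 4 lower in replicate 2 at an adjusted p under 0.05, none by 2-fold. The shares over all genes tested were 17% higher and 24.3% lower. The median log2 ratio of the 21 genes was 0.22. Reads that match near-identical copies, as miR-1 and miR-133 have, were counted on no gene, so this sum may be too low.

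Of the skeletal muscle markers 8 of 9 were detected, with a summed level of 116658 and 96096 CPM in replicates 1 and 2. Here too, reads that match near-identical copies of miR-1 and miR-133 were counted on no gene. Mir206 alone gave 115948 and 95264 CPM of it. This gene was the 1 tested marker lower in replicate 2 at an adjusted p under 0.05 (log2 ratio -0.28). Under that rule 3 of the 8 tested markers, Mir208b (log2 ratio 0.54), Mir1a-2 (0.37) and Mir486 (0.31), were higher. Over all genes tested 17% were higher and 24.3% lower. Several members are also known from other cell types, so the marker lists of those types are given beside them. For Mir31, also known from keratinocytes, the epithelial list had reads for all 7 genes in both libraries. The list summed to 197.1 and 125.1 CPM in replicates 1 and 2. Of its 6 tested genes 3, Mir205, Mir200c and Mir200b, were called lower in replicate 2, beside 3.8% of all genes tested. Mir31 differed in the same direction without passing the call. Mir200a (4 and 10 reads) and the untested Mir141 (2 and 4 reads) differed in the other. The part of the epithelial list in the value of Mir31 was not tested.

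For Mir221 and Mir222, also known from vessels and blood cells, the endothelial list summed to 42036 and 46314 CPM, all on Mir126a with Mir126b at 0 reads. The smooth muscle and stroma list summed to 27513 and 32786 CPM, with 1 of 7 genes, Mir145b, at 0 reads. Mir143 gave most of that sum, at 22806 and 29190 CPM. At an adjusted p under 0.05 Mir143 was higher in replicate 2 (log2 ratio 0.36). Under that rule 2 of 5 tested genes, Mir214 (log2 ratio -0.49) and Mir199a-2 (-0.43), were lower. Over all genes tested 17% were higher and 24.3% lower. The erythroid list summed to 2066 and 1865 CPM, and the leukocyte list to 1099 and 974.2 CPM. By the same rule Mir126a was higher in replicate 2, and 1 of 2 erythroid and 3 of 5 leukocyte genes were lower. None of these lists had a gene past the 2-fold call. Their part in the levels of Mir221 and Mir222 was not tested. The neural and glial list summed to 249.8 and 377.2 CPM, almost all on Mir338, with Mir9-2 and the 3 Mir124a genes at 0 reads. At an adjusted p under 0.05, 1 of its 3 tested genes, Mir338 (log2 ratio 0.59), was higher in replicate 2 and 0 were lower.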

How the data were processed

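Gene counts were analysed for 2 microRNA-seq libraries of 1 group. The authors deposited raw read counts per miRNA gene, unstranded, sense and antisense, and per the text deposited beside them the build was mm10 and the annotation GENCODE M21. For the aligner, its version, trimming and filters, settings were not given in the sources used here. Sense and antisense columns were told apart by their totals and the layout known from the STAR aligner. All 2202 identifiers matched the annotation. The 4 summary lines (56.9% and 61.2% of reads) stayed out of totals.

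Sense counts were scaled to CPM. Libraries were compared by a two-sided exact binomial test in scipy 1.17.1 over genes with 10 or more counts in both libraries together. Log2 ratios were taken after adding 0.5. The test was checked on simulated counts that held counting error only, so the check does not cover variation between animals. Alternatives used all reads, edgeR 4.0.16 TMM, DESeq2 1.42.0 size factors, unstranded counts, other filters, added counts and fold limits, and single libraries. Named were the members, genes within 10 kb or of the same seed, the 2 genes next above and below in mean CPM, and the 3 highest of each of 2 lists. Members and lists were chosen with earlier results of these data known.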

Additional observations from a re-analysis of the deposited data

Results flagged for a closer look

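Antisense reads, which no comparison above uses, were found on Mir708. There were 4 in replicate 1, past the limit of more than 3 reads used for flagging, and 1 in replicate 2, which did not pass it. They made up 0.489% (Wilson 95% interval 0.190% to 1.25%) and 0.0896% (0.0158% to 0.506%) of the reads on this gene, which has no miRNA gene annotated on the opposite strand. Over all genes without one, antisense reads numbered 33 and 44, or 0.00111% and 0.00135%. Of 18 genes with antisense reads in replicate 1, 2 had as many as Mir708 or more, and in replicate 2 all 23 did. Mir31, Mir489, Mir221 and Mir222 had 0 antisense reads in either library.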

How the results depend on the processing

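Scaled to all reads in the files, mean levels in CPM were 104.7 for Mir708, 33.2 for Mir221, 6.71 for Mir222, 1.78 for Mir31 and 1.35 for Mir489. The quiescence genes then summed to 107.8, the cycling genes to 39.9 and all 5 to 147.7. With unstranded counts, whose total is smaller, Mir708 stood at 308.8, Mir221 at 96.7 and Mir222 at 19.6 CPM, and the sums were 317.9, 116.3 and 434.2 CPM. TMM and DESeq2 factors moved these levels by less than the SD of the 2 animals. Without replicate 1 and without replicate 2, levels were 282.3 and 231.9 CPM for Mir708, 77.7 and 84.0 for Mir221, 16.0 and 16.8 for Mir222, 2.53 and 5.98 for Mir31, and 3.80 and 2.85 for Mir489. The sums were 288.6 and 240.7 CPM for the quiescence genes, 93.7 and 100.8 for the cycling genes, and 382.3 and 341.5 for all 5.

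The log2 ratios of all 5 members kept their sign under the 8 alternatives run. Scaled to all reads, Mir31 had -1.35 with an exact adjusted p of 0.0253 (0.0253 to 0.112 over its alternatives) and passed the call. Mir708 had 0.13 with 0.0866 (1.71e-06 to 0.0866) and no longer had an adjusted p under 0.05. Counted reads made up 43.1% and 38.8% of the files in replicates 1 and 2, so this scaling lowers the log2 ratio of every gene by the same amount. Why these shares differ was not tested. With 10 or more counts required in each library, 320 genes were tested and 16 were called, 7 of them lower in replicate 2. In the main setting 395 were tested and 28 called, 15 of them lower. Called genes with few reads in 1 library, such as Mir201 (13 and 0 reads) and Mir1224 (2 and 26 reads), no longer entered. Depth limits Mir31 and Mir489, with at most 21 reads in a library. No paired analysis was possible because all samples form 1 group.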
